A study of Mus musculus with 30 samples.

Results

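The genes described here make, import, move and export cholesterol in the mouse heart. The set was given as 8 gene symbols: the endolysosomal cholesterol transporter genes Npc1 and Npc2, the synthesis enzyme genes Hmgcs1 and Sqle, the regulators Srebf1, Srebf2 and Insig1, and the exporter gene Abca1. Of these, 6 have a row among the 13575 genes of the deposited expression table, and the expression of Hmgcs1 and Sqle was not analysed here. RNA came from hearts of mice aged 2 months, with the atria trimmed away, taken at ZT10, in zeitgeber time; with 1 time of day, a changed level and a changed daily timing cannot be told apart. There were 3 libraries labelled control, from mice with floxed REV-ERB alleles, and 3 labelled CM-RevDKO, in which both REV-ERB nuclear receptors were to be lost from cardiomyocytes. The protocol given for the ChIP samples of the series names a Cre driven by the alpha myosin heavy chain promoter, carried or not by mice with both receptor genes floxed. If the RNA controls lacked Cre, an effect of Cre itself and that of receptor loss cannot be told apart. The labels do not say whether a library is 1 animal or a pool, so the p-values below measure the spread between libraries, which may be technical.

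Cells get cholesterol by making it from acetyl-CoA through the mevalonate pathway and by taking up lipoproteins. Lipoprotein cholesterol is freed in lysosomes, where NPC2 hands it to NPC1 in the limiting membrane for export to other membranes. When sterols run low in the endoplasmic reticulum, SCAP carries SREBP-2 to the Golgi for cleavage and SREBP-2 switches on synthesis and uptake genes, whereas INSIG-1 holds the SCAP-SREBP complex back when sterols are plentiful. Excess cholesterol leaves through ABCA1, a target of the oxysterol receptors LXR. REV-ERBα and REV-ERBβ are repressors of the circadian clock that bind ROR elements and are known to act on sterol and bile acid metabolism in liver.

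Values were read as FPKM, a scale that corrects for the length of a gene's transcripts and for library size, so that levels can be compared between genes; sequencing depth is unknown. The libraries summed to between 678722 and 712158 FPKM over the table. The targeted gene Nr1d1 stood at 23.9, 22.6 and 15.0 FPKM in control replicates 1, 2 and 3 and at 55.6, 47.4 and 47.9 FPKM in CM-RevDKO replicates 1, 2 and 3, against the direction its label gives. Nr1d2 stood at 40.3, 30.6 and 36.3 FPKM and at 28.8, 26.6 and 26.7 FPKM, in the same order. A value over a whole gene also counts undeleted exons, and heart cells that lack Cre keep both genes, so neither value checks the deletion and directions below rest on the labels. For mt-Atp8, a mitochondrially encoded transcript, the values were 18989 and 19303 FPKM in CM-RevDKO replicates 1 and 2 and 8032 to 9769 FPKM elsewhere, so that these libraries stood apart. Cardiomyocyte markers (10 genes) summed to 31097 to 33373 FPKM in the control libraries and 30775 to 34298 FPKM in those labelled CM-RevDKO, and none of the 10 passed the test. Single markers went both ways under these sums, as with Tnnt2 (log2 0.37, limma adjusted p = 0.0744) and Pln (log2 -0.49, limma adjusted p = 0.0598). Ttn stood at 36.6 and 43.2 FPKM in CM-RevDKO replicates 1 and 2 and at 77.3 to 85.6 FPKM elsewhere. Atrial markers (4 genes, of which 3 were tested) summed to 62.2 to 113 FPKM and to 662, 166 and 205 FPKM in CM-RevDKO replicates 1, 2 and 3; Bmp10 was listed at 0 in 5 of the 6 libraries. Adipocyte markers (6 genes) summed to 10.2 to 15.5 FPKM in the control libraries and to 89.9, 49.5 and 12.0 FPKM in CM-RevDKO replicates 1, 2 and 3. Macrophage markers (13 genes) summed to 260 to 283 FPKM and to 405, 240 and 245 FPKM. Fibroblast markers (8 genes) summed to 529, 373 and 383 FPKM in control replicates 1, 2 and 3 and to 499, 410 and 390 FPKM in CM-RevDKO replicates 1, 2 and 3. None of the endothelial, fibroblast or smooth muscle and pericyte markers passed the test, nor did any of the atrial, adipocyte or macrophage ones. The part that cells other than cardiomyocytes play in the results below was not tested.

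**Figure D1:**
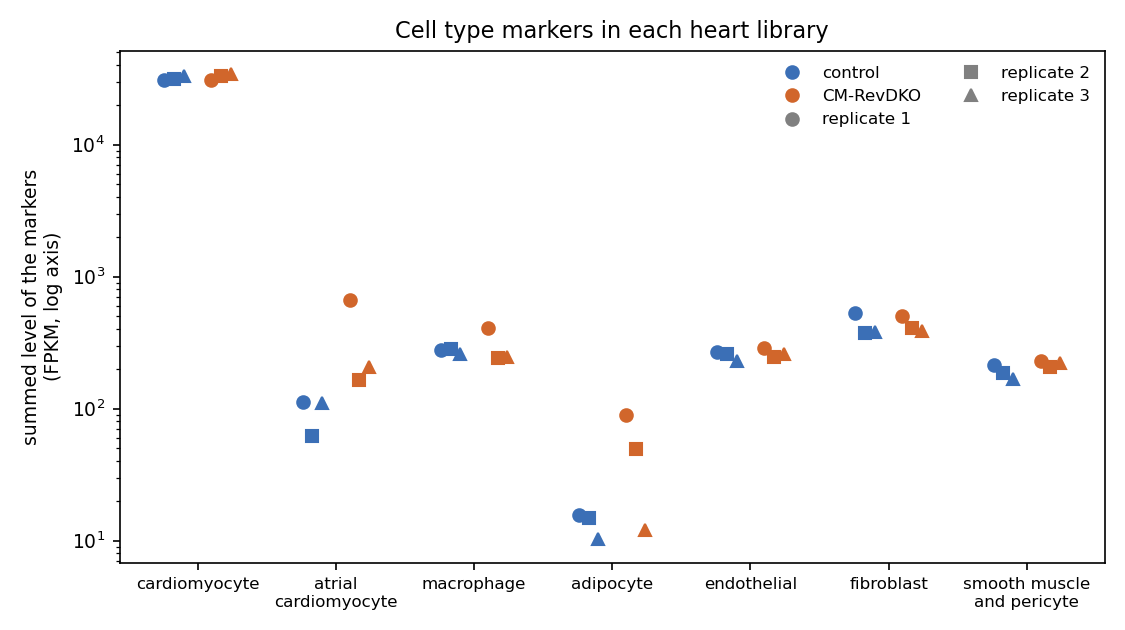
Summed level of each list of cell type markers (FPKM, log axis) in the 3 control libraries (blue) and the 3 labelled CM-RevDKO (orange), with 1 symbol per replicate number. Cardiomyocyte sums lie close together, and CM-RevDKO replicate 1 is highest for the atrial, adipocyte and macrophage lists.

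Npc1 was the single member that passed the test, and it was lower in the hearts labelled CM-RevDKO. Npc1 (ENSMUSG00000024413, chromosome 18, 12189694 to 12236506, mm10) encodes the multispanning lysosomal membrane protein whose loss causes Niemann-Pick disease type C. It stood at 11.5, 7.70 and 8.34 FPKM in control replicates 1, 2 and 3 and at 4.56, 3.32 and 3.91 FPKM in CM-RevDKO replicates 1, 2 and 3. Every control library was above every library labelled CM-RevDKO. Control replicate 1, the library with the highest sum of fibroblast markers, was the highest of all. The mean fell from 9.19 ± 2.05 to 3.93 ± 0.621 FPKM (SD, n = 3), a ratio of 0.428. On the log2(FPKM + 1) scale, which understates changes of low values, the difference was -1.04 (SE 0.17, 95% confidence interval -1.42 to -0.65, limma adjusted p = 0.0236). Of all 13256 genes tested, 2.50% passed the test, 1.24% as lower, and the groups did not overlap in 23.1%. In a bulk sample, fewer cells of a type and less RNA per cell cannot be told apart.

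The call of Npc1 rested on most of the libraries, while its size did not. The log2 difference was -0.88 without control replicate 1 (adjusted p = 0.0624), -1.09 without control replicate 3 (adjusted p = 0.0769), -0.94 without CM-RevDKO replicate 2 (adjusted p = 0.0888) and -1.04 without CM-RevDKO replicate 3 (adjusted p = 0.0584). It kept its call without control replicate 2 (-1.14, adjusted p = 0.0485) and without CM-RevDKO replicate 1, the library highest in macrophage, adipocyte and atrial markers (-1.13, adjusted p = 0.0385). With both of these left out, an alternative chosen after seeing the data, it was -1.23 (adjusted p = 0.0572).

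**Figure D2:**
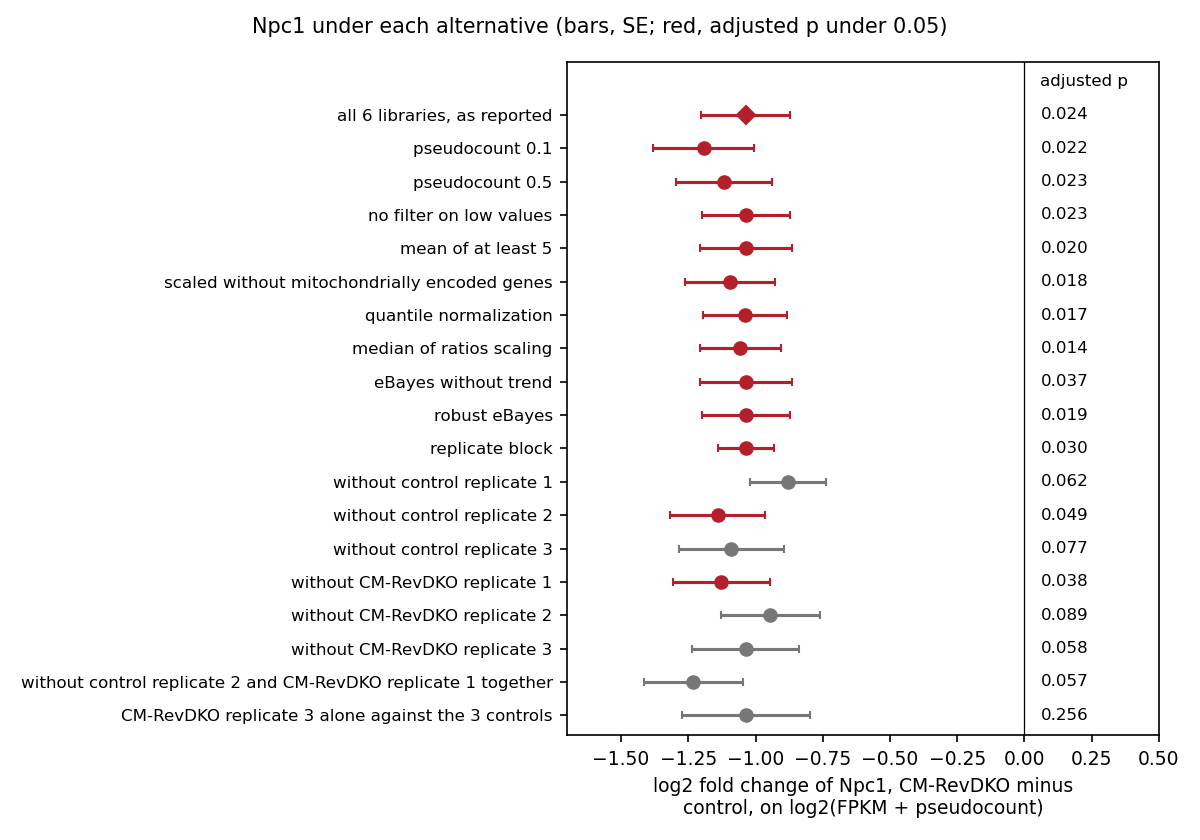
Log2 fold change of Npc1 (horizontal axis, CM-RevDKO minus control, with SE as bars) under each setting on the vertical axis, with the adjusted p at the right and red for an adjusted p under 0.05. Every setting shown lies between -1.23 and -0.88, and those with libraries left out hold all the grey points.

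Npc1 shares part of its locus with a gene that also fell. Rmc1, listed under its older name 3110002H16Rik, encodes a subunit of the Mon1-Ccz1 complex, which activates the late endosomal GTPase RAB7. Its RefSeq span, 12168689 to 12198675, overlaps that of Npc1 over 8982 bases. Rmc1 stood at 14.9, 14.4 and 12.8 FPKM in control replicates 1, 2 and 3 and at 8.11, 7.05 and 8.59 FPKM in CM-RevDKO replicates 1, 2 and 3, again with no overlap. The log2 difference was -0.76 (SE 0.11, adjusted p = 0.0158), and the call was lost when control replicate 1 (adjusted p = 0.0788), control replicate 2 (0.0699) or CM-RevDKO replicate 2 (0.0676) was left out. No source used here says whether the counting used strand, so reads of the shared stretch cannot be assigned to either gene. The ratio of Npc1 to Rmc1 was 0.773, 0.536 and 0.650 in the control libraries and 0.563, 0.471 and 0.455 in those labelled CM-RevDKO, with overlap between the groups.

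The gene of the partner of NPC1 did not pass the test. Npc2 (ENSMUSG00000021242, chromosome 12, 84754559 to 84773112) encodes the small soluble lysosomal protein that binds cholesterol before NPC1 does. Its level was 17.8, 16.3 and 15.8 FPKM in control replicates 1, 2 and 3 and 21.4, 16.0 and 16.5 FPKM in CM-RevDKO replicates 1, 2 and 3. The groups overlapped, and the highest value was in CM-RevDKO replicate 1, the library also highest in macrophage, adipocyte and atrial markers. The part of those cells in the Npc2 value was not tested. The log2 difference was 0.10 (95% confidence interval -0.20 to 0.40, adjusted p = 0.764), and it was -0.030 without CM-RevDKO replicate 1. Within each library, the ratio of Npc1 to Npc2 was 0.649, 0.472 and 0.529 in the controls and 0.213, 0.208 and 0.237 in the hearts labelled CM-RevDKO. That ratio rests on the Npc1 values already given and adds no separate test.

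The transcription factor genes among the members, Srebf1 and Srebf2, did not pass the test. Srebf1 (ENSMUSG00000020538, chromosome 11, 60199084 to 60224186) encodes SREBP-1, which mainly drives fatty acid synthesis. It stood at 6.24, 7.02 and 6.86 FPKM in control replicates 1, 2 and 3 and at 6.49, 5.95 and 6.06 FPKM in CM-RevDKO replicates 1, 2 and 3. The control range held the highest value, CM-RevDKO replicate 1 lay inside it, and the log2 difference was -0.10 (95% confidence interval -0.33 to 0.12, adjusted p = 0.641). Srebf2 (ENSMUSG00000022463, chromosome 15, 82147269 to 82205379) encodes SREBP-2, the main activator of cholesterol synthesis, and hosts the microRNA gene Mir33 within its span. Its level was 3.87, 4.03 and 4.23 FPKM in the controls and 4.82, 4.45 and 4.22 FPKM in CM-RevDKO replicates 1, 2 and 3. CM-RevDKO replicates 1 and 2 lay above all controls and replicate 3 within them; the log2 difference was 0.12 (95% confidence interval -0.11 to 0.36, adjusted p = 0.588). These intervals leave room for moderate changes in either direction, so they do not show that the genes were alike in both groups. The ratio of Srebf1 to Srebf2 was 1.61, 1.74 and 1.62 in the control libraries and 1.35, 1.34 and 1.44 in those labelled CM-RevDKO, a separation seen after the values were known and given as a description.

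Insig1 was the member with the widest relative spread among the libraries labelled CM-RevDKO. Insig1 (ENSMUSG00000045294, chromosome 5, 28071412 to 28078662) encodes the sterol-sensing anchor of SCAP. It stood at 5.71, 6.64 and 4.32 FPKM in control replicates 1, 2 and 3 and at 7.55, 6.04 and 4.63 FPKM in CM-RevDKO replicates 1, 2 and 3. The coefficient of variation was 21.0% in the controls and 24.1% in the libraries labelled CM-RevDKO, where it was 6.16% and 4.61% for Srebf1. The groups overlapped, with a log2 difference of 0.10 (95% confidence interval -0.34 to 0.55, adjusted p = 0.838) that was -0.042 without CM-RevDKO replicate 1 and -0.038 without control replicate 3. The long noncoding RNA gene Gm35223 spans the whole of Insig1 in the RefSeq annotation, and its reads could not be separated here.

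Abca1 (ENSMUSG00000015243, chromosome 4, 53030789 to 53159988) encodes the ATP-driven transporter that loads cholesterol onto apolipoprotein A-I. It stood at 4.66, 4.94 and 3.64 FPKM in control replicates 1, 2 and 3 and at 4.17, 3.60 and 3.41 FPKM in CM-RevDKO replicates 1, 2 and 3. The 2 highest values were control libraries, yet control replicate 3 lay below CM-RevDKO replicate 1. The log2 difference of -0.19 did not pass the test (95% confidence interval -0.50 to 0.12, adjusted p = 0.520).

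Ranked by level per length in the control libraries, the members ran Npc2, Npc1, Srebf1, Insig1, Abca1 and Srebf2. Npc1 was above Srebf1 in 3 of 3 control libraries and below it in 3 of 3 libraries labelled CM-RevDKO. Against Insig1 and Srebf2 it likewise stood higher in all 3 controls and lower in all 3 libraries labelled CM-RevDKO. In the latter it shared the lowest levels with Abca1, above it in 2 of 3 libraries. Srebf1 and Insig1, neighbours in this order, changed places among the libraries labelled CM-RevDKO, where Insig1 was higher in 2 of 3.

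**Figure D3:**
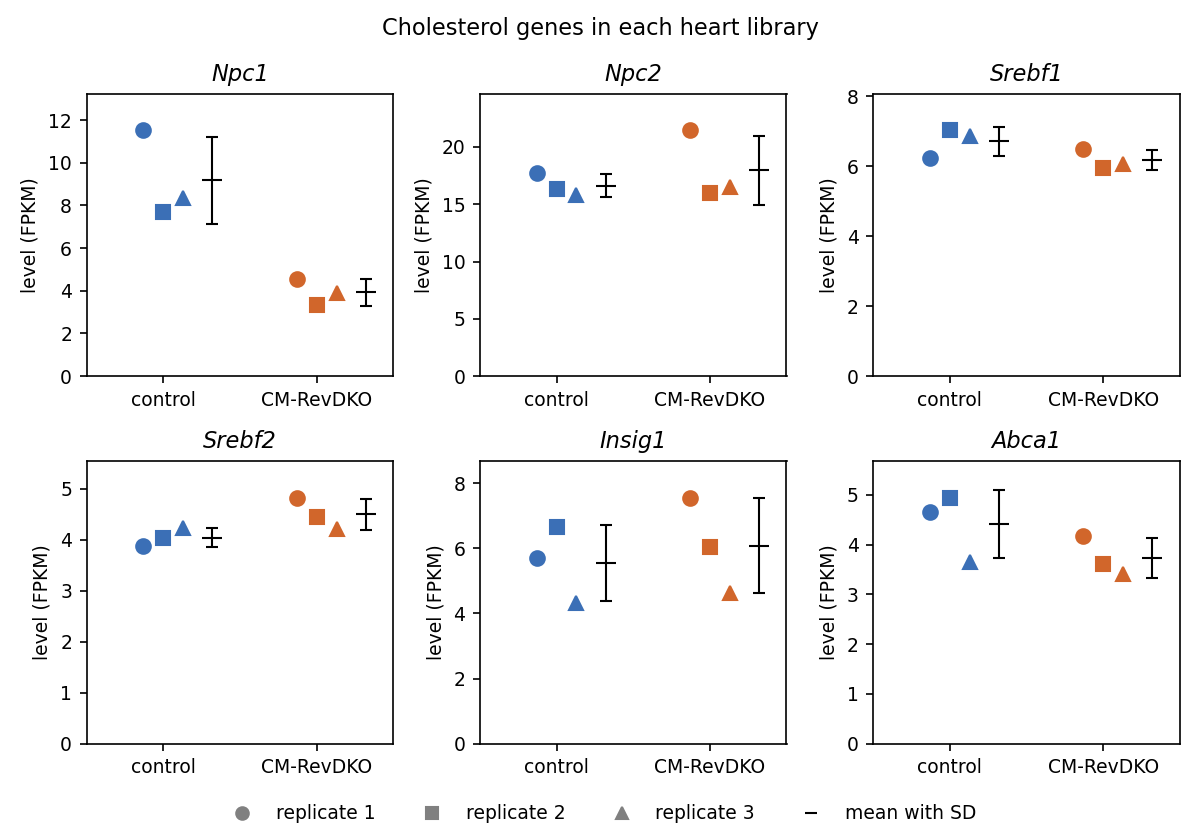
Level (FPKM, axes from 0) of the 6 measured members in each library, with blue for control, orange for CM-RevDKO, 1 symbol per replicate number, and bars for the mean with SD (n = 3). The Npc1 groups stand apart, at 7.70 to 11.5 and 3.32 to 4.56 FPKM, and the groups of the other 5 members overlap.

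Promoter sequence was compared because REV-ERB binds ROR elements, its target BMAL1 binds E-boxes, its target E4BP4 binds D-boxes and SREBP binds sterol elements. RefSeq promoters of GRCm38.p6, from 250 bases before to 50 bases after a start, were matched for Npc2, Hmgcs1, Srebf1, Srebf2, Insig1 and Abca1. Exact matches were sought on both strands. A member counted if any of its promoters matched, and Srebf1 has 3, whereas the percentages below are of single promoters. An E-box, CACGTG, was present for Insig1 and Abca1 and in 7.15% of all 32851 promoters of that length. A short form of the ROR element, AGGTCA after A or T and any base, was present for Insig1 and in 8.76% of all promoters. The longer element was not searched, so this match does not show that Insig1 carries it. The sterol element TCACNCCAC was present for Hmgcs1 and in 1.24%. The D-boxes TTATGTAA and TTACGTAA were present for no member and in 1.06%, and the CCAAT box ATTGG for 5 of the 6 and in 37.4%. The stretches below are the only member promoters with a clock motif among those searched, and that of Nceh1, a pathway gene that fell and whose promoter also holds an E-box. Capitals mark the E-box and, in Insig1, the short form of the ROR element that runs into it and shares 2 letters with it. The Insig1 stretch lies at chr5:28071280-28071341 on the plus strand, that of Abca1 at chr4:53160012-53160067 on the minus strand and that of Nceh1 at chr3:27182953-27183003 on the plus strand. A match describes letters and is neither a binding site nor a cause.
Insig1: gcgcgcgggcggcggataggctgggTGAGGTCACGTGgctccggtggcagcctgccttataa
Abca1: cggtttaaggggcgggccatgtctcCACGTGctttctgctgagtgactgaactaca
Nceh1: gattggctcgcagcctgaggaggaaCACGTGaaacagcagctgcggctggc
Nceh1 is shown because it fell, and E-boxes were not counted among the other pathway genes, so a link between E-box and fall was not tested. No promoter was matched for Npc1, Sqle or Fdft1. Beside these E-boxes the log2 differences were -0.77 for Nceh1, 0.10 for Insig1 and -0.19 for Abca1, of which that of Nceh1 passed the test; the genes were not tested against each other.

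Beyond the members, 6 lists of cholesterol genes were read from the same fit, with 66 genes tested, members included. Of these, 3 fell, 0 rose and 63 did not pass the test, a share of 4.55% called beside 2.50% of all genes. Their median log2 difference was 0.03, beside 0.02 over all genes, and 36 were positive and 30 negative. The groups did not overlap for 14 of the 66 (21.2%, beside 23.1% of all genes). An unadjusted p under 0.05 was found for 11 of the 66 (16.7%), beside 2206 of the 13256 genes tested (16.6%). The lists were chosen with earlier results of these data known, so these shares are a description and not an independent comparison. Npc1, Fdft1 and Nceh1 were the 3 that fell. The count was 1, Nceh1 alone, without control replicate 1, without CM-RevDKO replicate 2, or without control replicate 2 and CM-RevDKO replicate 1 together.

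Of 18 measured synthesis enzymes, Fdft1 fell and 17 did not pass the test. Fdft1 (chromosome 14, 63145150 to 63181687) encodes squalene synthase, which commits the mevalonate pathway to sterols and makes the substrate of SQLE. It stood at 14.0, 14.8 and 11.3 FPKM in control replicates 1, 2 and 3 and at 7.05, 7.40 and 6.83 FPKM in CM-RevDKO replicates 1, 2 and 3, with no overlap. The log2 difference was -0.82 (SE 0.12, adjusted p = 0.0158). Its call ended without control replicate 1 (adjusted p = 0.0802), control replicate 2 (0.0624) or CM-RevDKO replicate 2 (0.0622). Of the 18 enzymes, 12 had a positive and 6 a negative log2 difference, and the list's median was 0.06. Hsd17b7, a later enzyme of the pathway, had means of 4.69 and 2.92 FPKM with overlapping groups (log2 -0.55, adjusted p = 0.254).

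Among the 4 measured genes of cholesterol ester and oxysterol metabolism, Nceh1 fell and 3 did not pass the test. In this short list the groups did not overlap for 2 (50%, beside 23.1% of all genes), and 2 had an unadjusted p under 0.05 (50%, beside 16.6%). Nceh1 (chromosome 3, 27183004 to 27245266) encodes a neutral cholesterol ester hydrolase, which frees cholesterol from its stored esters. It stood at 38.5, 35.5 and 38.2 FPKM in control replicates 1, 2 and 3 and at 20.1, 21.9 and 22.8 FPKM in CM-RevDKO replicates 1, 2 and 3. The lowest control was well above the highest library labelled CM-RevDKO, and the mean fell from 37.4 ± 1.67 to 21.6 ± 1.34 FPKM (SD, n = 3). The log2 difference was -0.77 (SE 0.09, adjusted p = 0.00692), and the call held with each single library left out (adjusted p of 0.0170 to 0.0461). Soat1, which makes cholesterol esters, had means of 0.975 and 1.09 FPKM (adjusted p = 0.848).

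None of the 12 measured SREBP factors and their regulators passed the test, with 1 (8.33%, beside 16.6% of all genes) at an unadjusted p under 0.05 and differences from -0.14 to 0.29 on the log2 scale. The smallest p belonged to Rnf145, a ubiquitin ligase of the endoplasmic reticulum, at 4.41, 4.86 and 4.77 FPKM in the controls and 5.67, 6.06 and 6.06 FPKM in CM-RevDKO replicates 1, 2 and 3 (log2 0.29, adjusted p = 0.185). Insig2, the paralog of Insig1, had means of 15.5 and 14.3 FPKM (log2 -0.11, adjusted p = 0.644). Of 9 measured uptake genes none passed either, and 1 (11.1%, beside 16.6% of all genes) had an unadjusted p under 0.05. Vldlr, the receptor for very low density lipoprotein, had the smallest p, at 67.3, 48.8 and 43.6 FPKM in the controls and 35.2, 33.1 and 35.8 FPKM in CM-RevDKO replicates 1, 2 and 3. Its groups did not overlap, but the controls were far apart (log2 -0.58, adjusted p = 0.119). Lrp1, a large scavenger receptor, stood at 40.8 FPKM in control replicate 1 and at 13.9 to 19.7 FPKM in the other 5 libraries (adjusted p = 0.728).

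Of 15 measured genes of endolysosomal and intracellular sterol transport, Npc1 fell while the other 14 missed the threshold. The groups did not overlap for 7 of the 15 (46.7%, beside 23.1% of all genes), and 5 had an unadjusted p under 0.05 (33.3%, beside 16.6%). Gramd1b, which moves cholesterol from the plasma membrane to the endoplasmic reticulum, had a difference as large as that of Npc1 without passing. It stood at 8.87, 12.0 and 9.70 FPKM in the controls and at 3.57, 3.16 and 7.25 FPKM in CM-RevDKO replicates 1, 2 and 3 (log2 -1.04, adjusted p = 0.0929). CM-RevDKO replicate 3 lay much nearer the controls, and without it Gramd1b was at -1.35 with an adjusted p of 0.0131. Other lysosomal genes went both ways without passing: Lamp1, a main glycoprotein of the lysosomal membrane, had means of 127 and 169 FPKM (adjusted p = 0.0655). Scarb2, its neighbour LIMP-2 in that membrane, had means of 46.2 and 35.2 FPKM (adjusted p = 0.128). Lipa, the acid lipase that supplies NPC2 with cholesterol, had means of 7.58 and 8.20 FPKM (adjusted p = 0.776). None of the 8 measured efflux and LXR genes passed, and none had an unadjusted p under 0.05 or groups free of overlap. Nr1h3, which encodes LXRα, had the smallest p there after means of 4.92 and 6.78 FPKM (log2 0.43, adjusted p = 0.433).

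**Figure D4:**
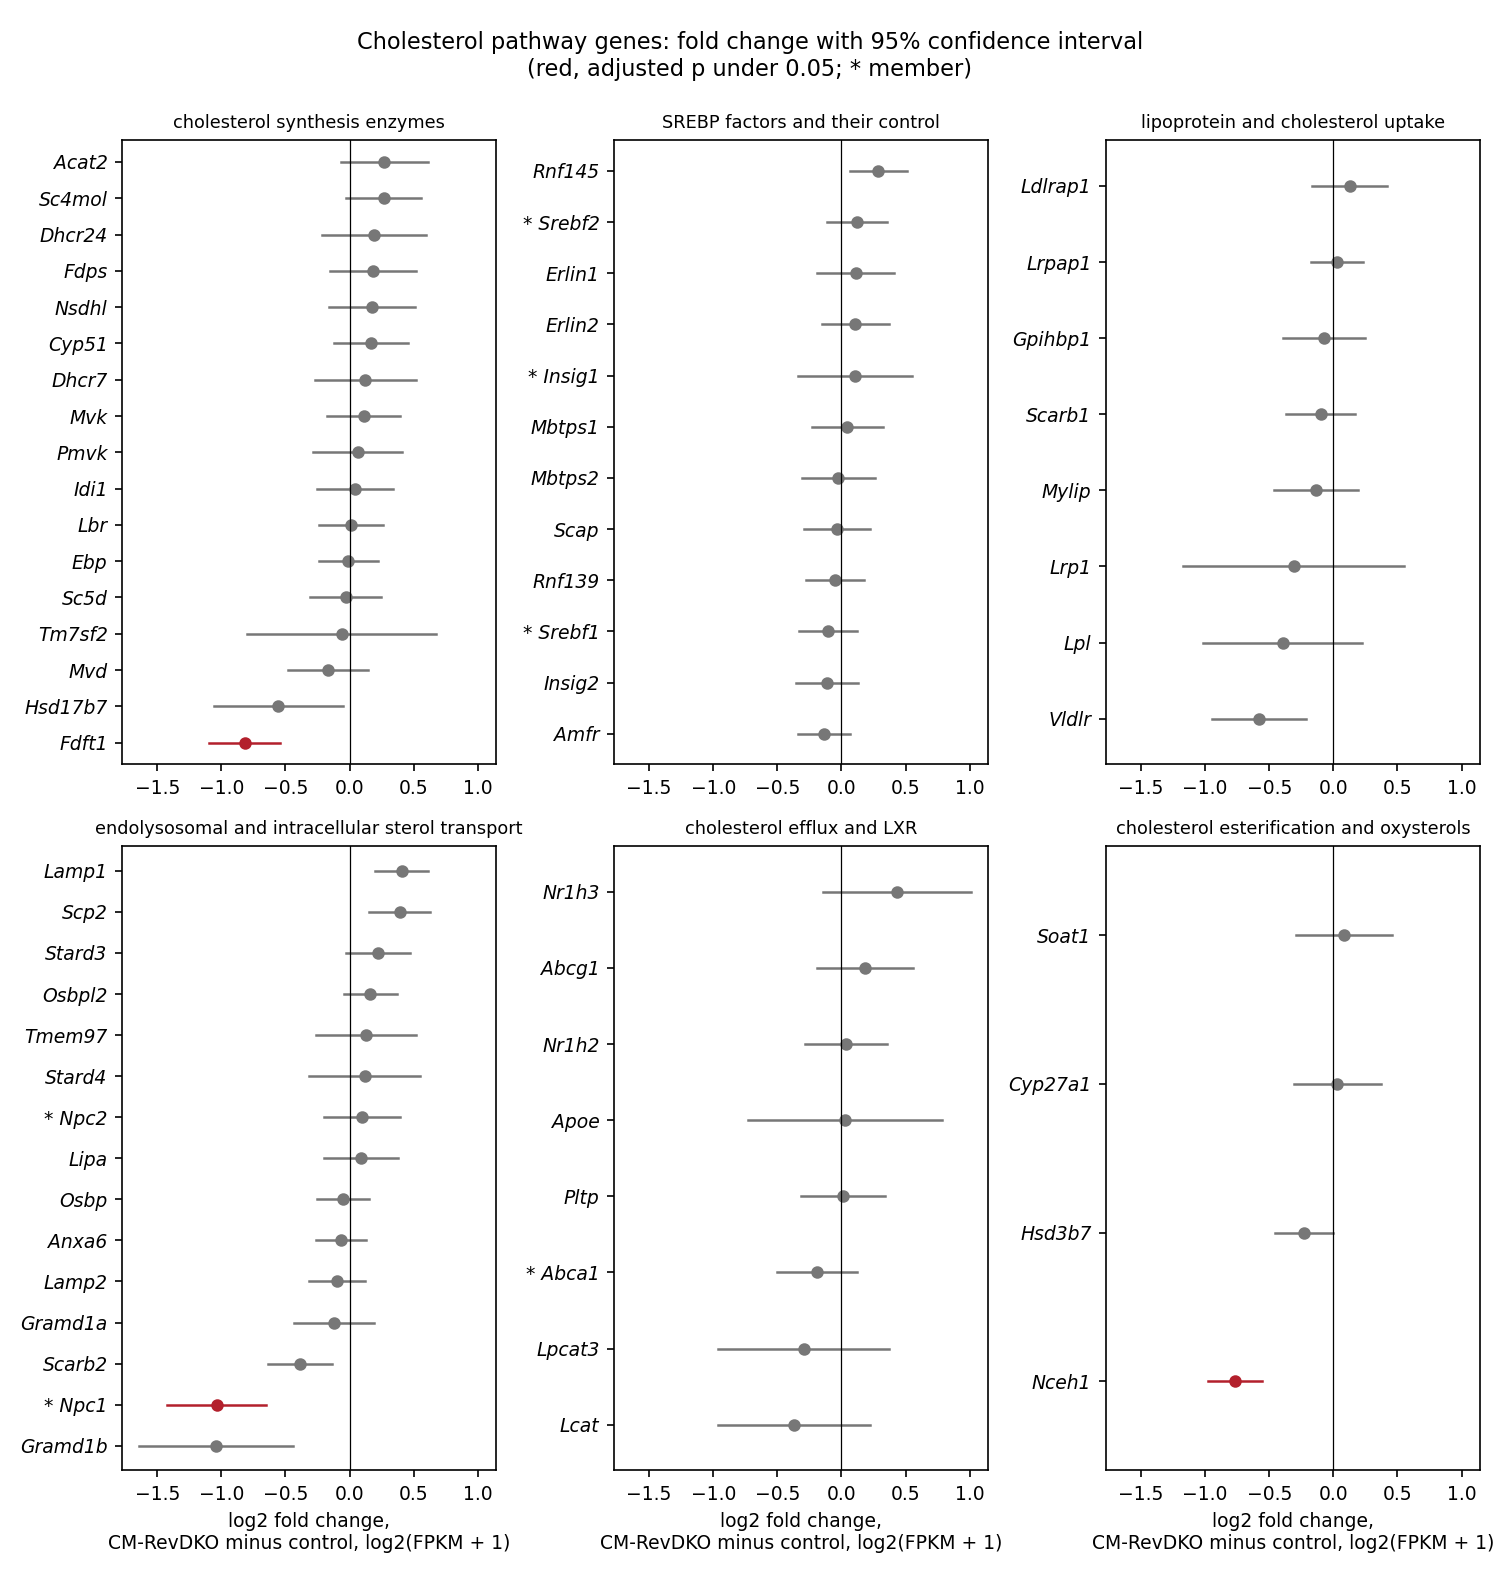
Log2 fold change (horizontal axis, CM-RevDKO minus control on the log2(FPKM + 1) scale) of genes tested in 6 cholesterol lists, with 95% confidence intervals as lines, red for an adjusted p under 0.05 and * for members. Fdft1, Npc1 and Nceh1 are red, at -0.82, -1.04 and -0.77, and most other intervals cross 0.

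Genes listed as targets of SREBP-1 in lipid synthesis, not all of them enzymes of fatty acid synthesis, were read as a neighbouring list. Of 15 measured, Pnpla3 rose and 14 did not pass the test, and 7 had an unadjusted p under 0.05 (46.7%, beside 16.6% of all genes). The groups did not overlap for 7 (46.7%, beside 23.1% of all genes), with 5 higher and 2 lower in the libraries labelled CM-RevDKO. Pnpla3 (chromosome 15, 84167776 to 84189521) encodes a lipid droplet protein. It stood at 0.352, 0.404 and 0.192 FPKM in control replicates 1, 2 and 3 and at 3.48, 3.76 and 2.88 FPKM in CM-RevDKO replicates 1, 2 and 3 (log2 1.73, SE 0.15, adjusted p = 0.00201). Because its control values were so low, the log2 difference depended on the constant added, and it was 3.09 with 0.1 in place of 1. Every control value was under the mean of 0.5 FPKM that the fit required, so Pnpla3 entered it only through the libraries labelled CM-RevDKO. It also reached 1 FPKM, as every listed gene does somewhere, only in those libraries. A gene as low in both groups would not have been tested, so this call is not independent of the filter. The call of Pnpla3 held with each single library left out. Fasn, fatty acid synthase, stood at 3.62, 2.96 and 3.28 FPKM and at 4.96, 8.26 and 5.47 FPKM in the same order, with no overlap and no call (log2 0.73, adjusted p = 0.0885). Acacb, the acetyl-CoA carboxylase of the outer mitochondrial membrane, had means of 46.4 and 31.7 FPKM and no overlap (log2 -0.54, adjusted p = 0.0697). The summed adipocyte markers given above were highest in CM-RevDKO replicates 1 and 2 and lay in the control range in CM-RevDKO replicate 3. Single markers departed from the sum in that library. Adipoq and Retn lay above all controls there, and Plin1, Cidec and Pck1 lay below all controls. The part of adipocytes in the values of this list was not tested.

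The genes whose levels followed Npc1 most closely over the 6 libraries were Ptp4a1, Abcc1 and Ppp2r3a, with Pearson r of 0.993, 0.991 and 0.991 among the 7254 genes compared, all averaging 5 FPKM or more. Their means were 17.2 and 10.3, 7.52 and 4.39, and 68.2 and 42.2 FPKM in the control libraries and in those labelled CM-RevDKO. All of them passed the test as lower (limma adjusted p = 0.0274, 0.0285 and 0.0225), so the difference between the groups enters these r values. The closest to Abca1, the member with the next smallest p, were Gaa, Nit2 and Abi1 (r of 0.989, 0.986 and 0.982), and none of these passed the test. With 6 libraries in 2 groups, such values describe these libraries only.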

How the data were processed

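The authors deposited 1 table of values per gene and library, made with HISAT2 and StringTie on build mm10, per the submitters' processing notes. Their versions, the annotation and the strand setting are not stated in any source used here. The unit of the deposited values, FPKM, was inferred from the tool, since the header names none, and TPM cannot be told apart from it. Every gene listed reaches 1 in at least 1 library. Values did not fall on whole-read steps: in 15 pairs of libraries at most 4 of 2202 to 2660 genes under 2 FPKM shared a log2 ratio to 4 decimals. Depth and counting error are therefore unknown.

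Values were analysed as log2(FPKM + 1). Genes averaging 0.5 or more, 13256 in all, entered a fit by limma 3.58.1 under R 4.3.3 (group only, eBayes with trend, two-sided), adjusted by Benjamini-Hochberg over all of them, with a threshold of 0.05. The fit was tested first on simulated data, with known changes placed in genes away from the lowest levels. It recovered 21.8% of log2 changes of 0.5, 74.1% of those of 1 and 93.6% of those of 2. False calls made up 5.49% of the calls. A gene that did not pass the test may therefore still have changed. Alternatives were other added constants (0.1, 0.5), filters, scalings, eBayes settings, a replicate block and each library left out. The members and lists were chosen with earlier results of these data known. Named genes are the members, each list gene that passed, and the smallest p of a list without calls; Hsd17b7, Soat1, Insig2, Lrp1, Gramd1b, Lamp1, Scarb2, Lipa, Fasn, Acacb and Rmc1 were added after their values were seen. Likeness was taken for the 2 members with the smallest p, with 3 genes each. Coordinates and promoters are from RefSeq, GRCm38.p6, 1-based. The other 24 of 30 samples were not analysed here. The counts of the lists include 2 genes whose values are not reported here and are not plotted.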

Additional observations from a re-analysis of the deposited data

How the results depend on the processing

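The fall of Npc1 kept its direction in all 18 alternatives and its call in the 10 that keep all libraries (log2 -1.19 to -1.04). With 1 library left out it was -1.14 to -0.88, and the count of members past the test was 0 to 1, that of pathway genes 1 to 4 and that of all genes 120 to 322, against 332. Without control replicate 2 and CM-RevDKO replicate 1 together, chosen after seeing the data, Npc1 was at -1.23 and the counts were 0, 1 and 105. With CM-RevDKO replicate 3 alone against the controls, also chosen later, Npc1 was at -1.03 and the counts were 0, 0 and 21; its lone library is assumed to vary like the others. Npc2 changed sign with libraries left out (-0.030 to 0.17; -0.041 and -0.0064 in the later settings), as did Insig1 (-0.042 to 0.26; -0.20 with CM-RevDKO replicate 3 alone). Neither was called in any setting. Fewer samples enter these fits; beyond that the cause was not tested. The replicate block moved the count of all genes to 115 and ended the calls of Fdft1 (adjusted p = 0.0513) and Rmc1 (adjusted p = 0.0742); Npc1 kept its call (adjusted p = 0.0298). Same-numbered libraries had correlations of deviations of -0.04, -0.06 and 0.09, and differently numbered ones had -0.09 to 0.11. With so few libraries, these values cannot tell whether the numbers pair libraries. Lamp1 was called only with a mean of at least 5 FPKM, and Lpcat3 only without CM-RevDKO replicate 1. Srebf2 and Abca1 fall below a mean of 5 FPKM and have no value there. The 3 member promoters with a motif other than CCAAT were 3 with the upstream 250 bases alone. With unknown depth, differences in genes near 1 FPKM are the least certain.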
